A study of Mus musculus with 12 samples.

Results

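The genes of the fibroblast growth factor (FGF) pathway described here were 36 of the 22350 protein-coding genes annotated on chromosomes that carried BRG1 regions. They were taken from a list of FGF family and feedback genes and not by any measured value, though earlier results of these data were known. They comprised 18 genes for secreted FGF ligands, 3 for intracellular FGF homologous factors, 4 for FGF receptors, 9 for feedback regulators or targets of the pathway and 2 for receptor adaptors. The measurement was BRG1 ChIPseq in cardiac precursors (CPs) differentiated from mouse embryonic stem cells, and each gene was scored for a listed BRG1 region at its promoter, 1 kb either side of any annotated transcription start site (TSS), and within 100 kb of a TSS. BRG1 is the ATPase of the BAF chromatin remodelling complexes.

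The cells were wild type, of the strain W4/129S6, and had been grown as embryoid bodies with VEGF, Activin and BMP4 before monolayer culture with added FGFs. The list of regions rests on 2 BRG1 ChIP libraries and 1 input library of the 12 libraries of the series, and the other 9 were not analysed here. It held 4791 rows for 3473 distinct regions, each with a start and an end on mm9 and with no height or P-value, so that the identity of the cells could not be checked against marker expression either. The number of rows is the one the study gives for CP binding regions, but the number of distinct regions coincides with the one it gives for cardiac myocytes, and whether the list holds regions of CPs alone could not be settled from the positions. Because there was 1 list and no value for a single library, no spread between replicates could be given, no difference was tested, and a gene without a region may have been unbound or below the enrichment threshold.

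FGF ligands bind receptor tyrosine kinases at the cell surface together with heparan sulphate, and the activated receptor phosphorylates adaptors of the FRS family that pass the signal to the Ras-ERK cascade. ERK signalling in turn induces ETS transcription factors of the ETV group and feedback inhibitors of the Sprouty, Spred and dual-specificity phosphatase families. In the embryo the pathway is known for its part in gastrulation, in the growth of the heart field and in myocardial proliferation.

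A BRG1 region lay at the promoter of 9 of the 36 genes, at Fgf2, Fgf8, Fgf9, Fgf20, Fgfr1, Fgfr2, Spry1, Etv4 and Frs3. This share was 25% (95% Wilson interval 13.8% to 41.1%, which covers counting error only), and 11.9% of the 22313 other protein-coding genes had a promoter region. The FGF pathway genes had CpG-rich promoters, with a median of 118 CpGs in the 2 kb around the TSS compared with 66 for other genes. Among other genes with a CpG count within 5 of each of the 36, a promoter region was present at 24.6% on average, which would amount to 8.86 of 36 genes. The side on which the pathway genes fell depended on the definitions. Of 14 alternative definitions, their share was above that of other genes at the same CpG counts in 6 and below it in 8. It was 27.8% against 25.1% with a promoter of 2 kb either side, 16.7% against 22.6% with the most upstream TSS only, and 13.9% against 20.3% with regions of 200 bp or wider.

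Within 100 kb of a TSS, 22 of the 36 genes had a region. This was 61.1% (44.9% to 75.2%) against 38.3% of other protein-coding genes, and against 51.8% at the same CpG counts, which would be 18.6 genes. The interval includes this 51.8%. The share of the pathway genes was above that at the same CpG counts under each of 12 alternative definitions, by 0.976 to 4.23 genes. These definitions reuse the same genes and the same list, so they are not separate support. Of the 40 distinct regions in these windows, 12 lay at the promoter of the FGF pathway gene itself, 20 only at the promoter of another gene, and 8 away from any annotated promoter. For 10 of the 22 genes, all regions lay at the promoter of another protein-coding gene, and for Fgf20 and Frs3 among them that region was at their own promoter as well. With every region at the promoter of another protein-coding gene left out, 12 genes (33.3%) kept a region within 100 kb, compared with 17.9% of other genes and 29.2% at the same CpG counts.

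**Figure D1:**
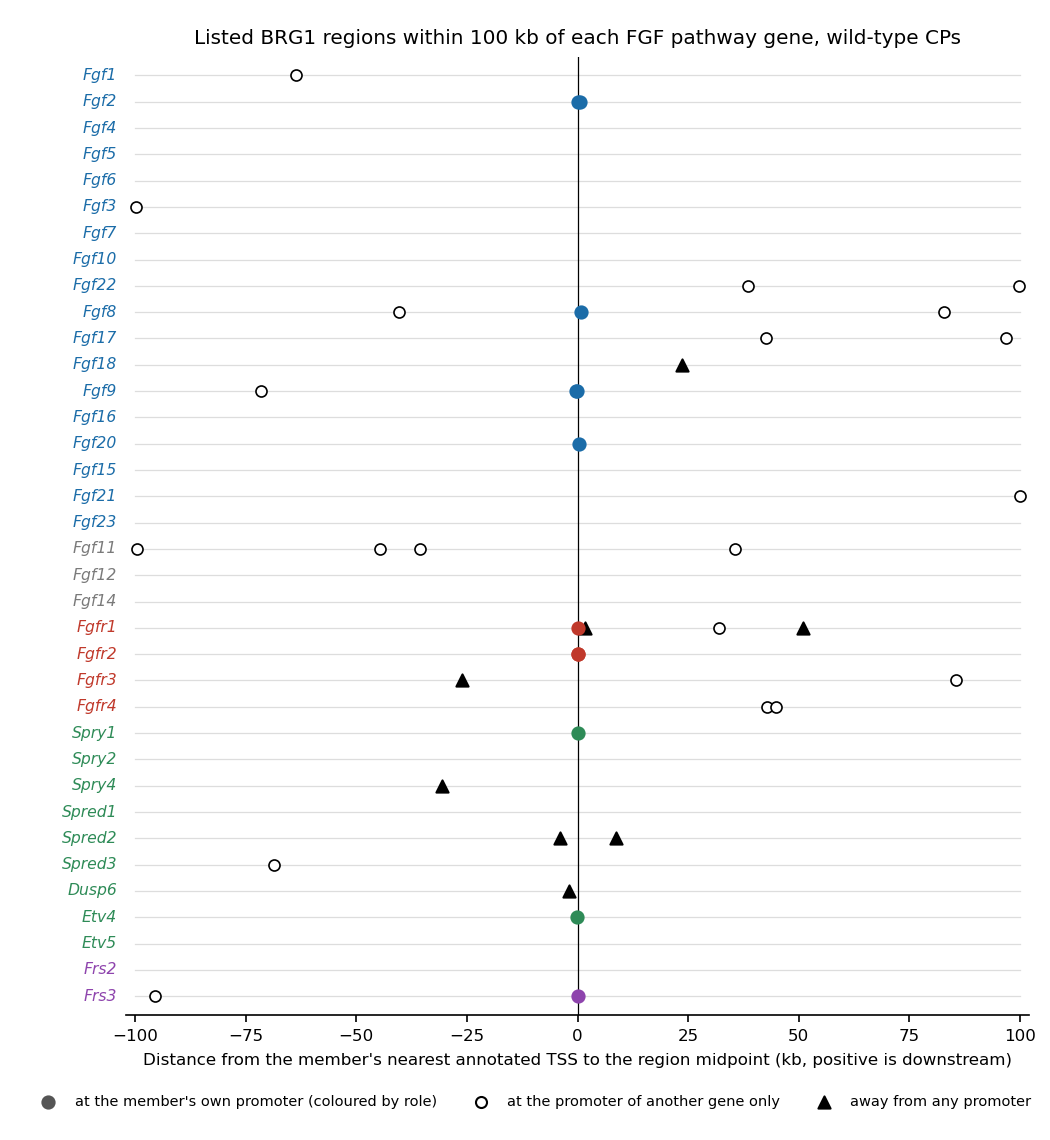
Midpoints of the listed BRG1 regions within 100 kb of each of the 36 genes, as the distance in kb from the nearest annotated TSS of that gene. Filled circles are the 12 regions at the gene's own promoter, open circles the 20 only at the promoter of another gene, triangles the 8 away from any promoter, and 14 genes have no symbol because no region lay within 100 kb.

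The promoters differed in CpG count from 16 at Fgf23 to 208 at Spred1, and the share of other genes with a promoter region rose steadily with that count. It was 0.0236% of other genes below 20 CpGs, 12.6% from 80 to 100 CpGs and 64.4% from 220 CpGs upward. Of the 22 FGF pathway genes with 100 or more CpGs, 8 had a promoter region (36.4%), and other genes at those counts had one in 36.7%. Of the 14 with fewer than 100 CpGs, 1 had a region (7.14%, against 5.67%), and this gene was Fgf2 with 94 CpGs. The 9 genes with a promoter region had 94 to 195 CpGs, with a median of 128. The 27 without one spanned 16 to 208 CpGs with a median of 104, and 13 of these 27 had fewer than 100. The 2 sets thus overlapped from 94 to 195 CpGs only.

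**Figure D2:**
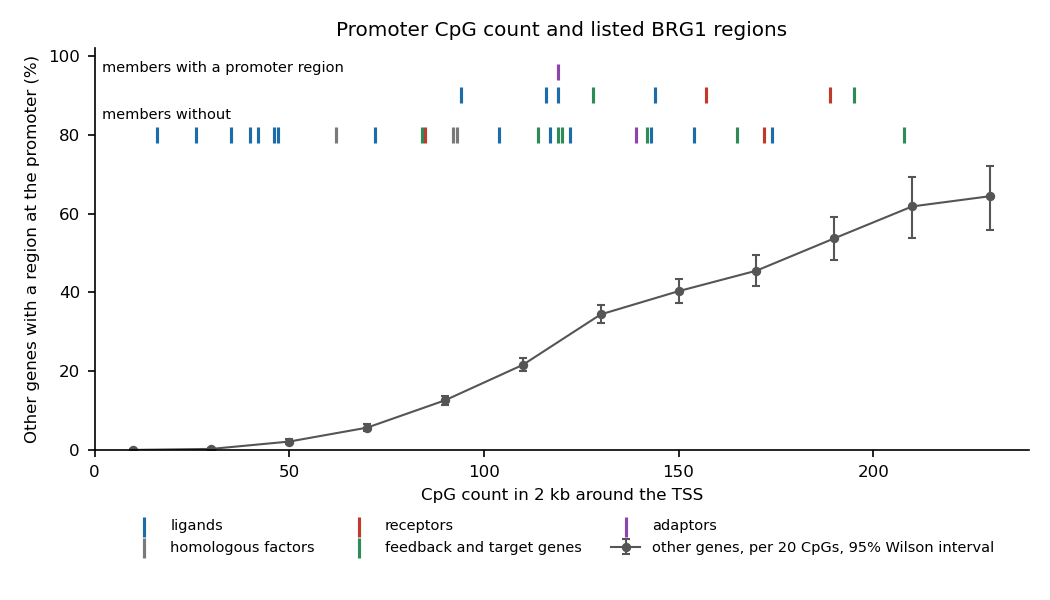
Share of other protein-coding genes with a BRG1 region at the promoter (%) against the CpG count in the 2 kb around the TSS, per 20 CpGs with 95% Wilson intervals, and the CpG count of each FGF pathway gene as a tick coloured by role. The 9 genes with a promoter region (upper ticks) lie between 94 and 195 CpGs, and the 27 without one (lower ticks) between 16 and 208.

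Among the 18 genes for secreted ligands, 4 had a BRG1 region at the promoter (22.2%), compared with 17.5% of other genes at the same CpG counts. Within 100 kb, 10 of the 18 had a region (55.6%, against 45.9%). The 4 promoters belonged to 3 of the 6 ligand subfamilies. In the FGF9 subfamily 2 of 3 genes had a promoter region (0.938 at the same CpG counts), in the FGF1 subfamily 1 of 2 (0.147), and in the FGF8 subfamily 1 of 3 (0.859). None was listed at the promoters of the 3 genes of the FGF4 subfamily, the 4 of the FGF7 subfamily or the 3 endocrine ligands, where the CpG counts of other genes corresponded to 0.466, 0.482 and 0.259 genes.

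Fgf9, a ligand that acts on mesenchyme and on the developing myocardium, had 2 narrow promoter regions, at chr14:58691066-58691185 (120 bp) and chr14:58693786-58693885 (100 bp). Both lay in introns of the annotated gene. Each was placed at the promoter by the start of 1 of 4 coding transcripts, with midpoints at -397 and -116 bp from it, while the midpoints were 1742 and 4452 bp downstream of the most upstream TSS. These were the most GC-rich promoter regions of the pathway genes, with 83.3% and 82.0% G+C. They are shown whole on the plus strand, 5' to 3', with CpGs in capitals, 25 in the first and 14 in the second.
Fgf9, chr14:58691066-58691185: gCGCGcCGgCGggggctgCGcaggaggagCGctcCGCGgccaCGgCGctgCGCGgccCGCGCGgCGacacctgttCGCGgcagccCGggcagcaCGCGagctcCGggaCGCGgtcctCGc
Fgf9, chr14:58693786-58693885: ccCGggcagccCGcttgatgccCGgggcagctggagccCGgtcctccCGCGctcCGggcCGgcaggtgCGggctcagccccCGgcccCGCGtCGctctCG

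Fgf2, basic FGF, also had 2 promoter regions. The wider, chr3:37247646-37248485, was 840 bp, stood on 2 rows of the list and overlapped an exon, with its midpoint 491 bp downstream of the nearest TSS. Of the 4 coding transcripts of Fgf2, 2 start within 1 kb of it. The other, chr3:37211466-37211625 (160 bp), was at the start of 1 noncoding transcript only and lay at the promoters of Bbs12 and Cetn4 as well. A stretch of 200 bp of the wider region outside annotated UTRs, chr3:37247966-37248165 on the plus strand, holds 10 CpGs, shown in capitals.
Fgf2, chr3:37247966-37248165: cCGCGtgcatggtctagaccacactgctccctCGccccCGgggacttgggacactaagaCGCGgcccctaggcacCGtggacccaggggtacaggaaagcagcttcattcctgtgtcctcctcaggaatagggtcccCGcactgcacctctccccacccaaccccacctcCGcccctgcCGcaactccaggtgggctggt

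Fgf8, which is needed for gastrulation and for the anterior heart field, had 1 promoter region of 120 bp, chr19:45816346-45816465. It lay 768 bp downstream of the nearest TSS and had 3.33 CpGs per 100 bp, the lowest value among the 12 promoter regions. The gene had further regions at the promoters of its neighbours Mgea5, 40.3 kb upstream, and Fbxw4, 82.7 kb downstream. Fgf20, a ligand of the inner ear and kidney, had a 500 bp region at chr8:41393086-41393585. This region was also at the promoter of the adjoining gene Efha2, which had the TSS closest to the region's midpoint. It lay at the start of 1 of the 2 annotated Fgf20 transcripts, a transcript with a span of 28.6 kb.

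Of the 14 ligand genes without a promoter region, 6 had a region within 100 kb. The only one of these away from any promoter was in an intron of Fgf18, a ligand of skeletal and lung development, at chr11:33023166-33023325 (160 bp), 23.5 kb from the nearest TSS. The nearest regions of the others lay at promoters of other genes. They were 38.6 kb from Fgf22, a synaptic organiser, at Palm, 42.7 kb from Fgf17, a hindbrain and cerebellar ligand, at Fam160b2, 63.6 kb from Fgf1, acidic FGF, at Arhgap26, 99.6 kb from Fgf3, an inner ear ligand, at Ano1, and 99.9 kb from Fgf21, a metabolic hormone, at Tulp2.

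The remaining 8 ligand genes had no region within 100 kb. They included Fgf10, a ligand of lung and limb outgrowth that is also expressed in the heart field, whose nearest region was 583 kb away, and Fgf16, a cardiac ligand on the X chromosome, with the largest distance of the 36 genes at 3750 kb. The distance was 123 kb for Fgf4, an epiblast ligand, 158 kb for Fgf15, the ileal hormone of bile acid control, 252 kb for Fgf7, keratinocyte growth factor, and 258 kb for Fgf23, the phosphate hormone. It was 315 kb for Fgf6, a muscle ligand, and 783 kb for Fgf5, a regulator of hair growth. Fgf3, Fgf4 and Fgf15 are neighbours on chromosome 7 and had the same nearest region, at the promoter of Ano1, and Fgf6 and Fgf23 shared one on chromosome 6, so these are not separate observations.

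The FGF homologous factors stay in the cell and modulate voltage-gated sodium channels rather than FGF receptors. None of the 3 genes had a promoter region, where 10.4% of other genes at the same CpG counts had one. Fgf11 had 4 regions within 100 kb, all at promoters of other genes in a gene-dense stretch of chromosome 11, with the nearest 35.6 kb away at Zbtb4. The nearest region was 119 kb from Fgf12 and 1210 kb from Fgf14.

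All 4 receptor genes had a region within 100 kb, where 59.7% of other genes at the same CpG counts did, and 2 of the 4 had one at the promoter, compared with 37.6%. With 4 genes the 95% Wilson interval of the promoter share runs from 15.0% to 85.0%, and that of the 100 kb share from 51.0% to 100%. Any TSS of a gene could score, and the other genes were not matched for the number of TSSs. This number was 13 for Fgfr1, 15 for Fgfr2, 9 for Fgfr3 and 4 for Fgfr4, against a median of 2 for other protein-coding genes. Fgfr1, the receptor required for mesoderm to pass through gastrulation, had the region chr8:26629686-26630025 (340 bp) over 1 of its annotated start sites, and 5 of its 13 transcripts start within 1 kb of it. A further 540 bp region lay in an intron of the gene at chr8:26625466-26626005, with its near edge 1340 bp from the closest TSS and thus just outside the promoter window. Fgfr1 also had 2 more distant regions, both at or in the neighbouring gene Whsc1l1. One of these, 31.9 kb away, was at the Whsc1l1 promoter and the other, 51.0 kb away, was in an intron.

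Fgfr2, whose splice forms serve epithelium and mesenchyme, had the widest promoter regions of the pathway genes. The region chr7:137408846-137410005 was 1160 bp, stood on 2 rows and lay within 1 kb of the starts of 5 of the 20 coding transcripts, and 91.5% of the 2510 regions at promoters of protein-coding genes were narrower. The region chr7:140313766-140316085 was 2320 bp and stood on 9 rows, and 99.4% of those regions were narrower. It overlaps the promoter of Ctbp2, which encodes a corepressor, and it counted for Fgfr2 through a single annotated transcript with a span of 3010 kb. Stretches of 200 bp outside UTRs from both, on the minus strand with CpGs in capitals, hold 14 CpGs in the Fgfr2 region and 20 in the region shared with Ctbp2.
Fgfr2, chr7:137409108-137409307: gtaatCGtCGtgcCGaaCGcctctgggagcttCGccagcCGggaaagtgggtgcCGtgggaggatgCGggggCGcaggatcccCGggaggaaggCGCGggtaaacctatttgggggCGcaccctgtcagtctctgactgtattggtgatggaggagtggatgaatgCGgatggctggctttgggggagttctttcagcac
Fgfr2 and Ctbp2, chr7:140314624-140314823: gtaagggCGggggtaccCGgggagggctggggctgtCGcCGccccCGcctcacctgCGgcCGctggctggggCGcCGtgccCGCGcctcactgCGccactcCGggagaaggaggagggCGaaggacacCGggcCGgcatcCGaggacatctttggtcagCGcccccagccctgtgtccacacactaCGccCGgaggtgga

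The other receptor genes had none at the promoter. For Fgfr3, a regulator of cartilage growth with 172 promoter CpGs, the nearest was an intergenic region of 360 bp at chr5:34038086-34038445, 26.1 kb upstream, and Tacc3 was the closest protein-coding gene to it. For Fgfr4, the receptor of liver bile acid control with 85 CpGs, both regions within 100 kb were at the promoter of Nsd1, 42.7 and 44.8 kb downstream.

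Among the 9 feedback and target genes, 2 had a promoter region (22.2%), where 36.0% of other genes at the same CpG counts did, which would be 3.24 genes. Within 100 kb the count was 6 of 9 (66.7%, against 60.6%). In these genes and in the homologous factors the promoter share was below that of other genes of like CpG count, and in ligands, receptors and adaptors it was above. The gap was 1.24 genes for feedback and target genes, 0.849 for ligands, 0.496 for receptors, 0.344 for adaptors and 0.312 for homologous factors. Outside feedback and target genes, 1 gene more or fewer would turn the side of each role. The sides are therefore not read as a pattern by role, and no gap was tested.

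**Figure D3:**
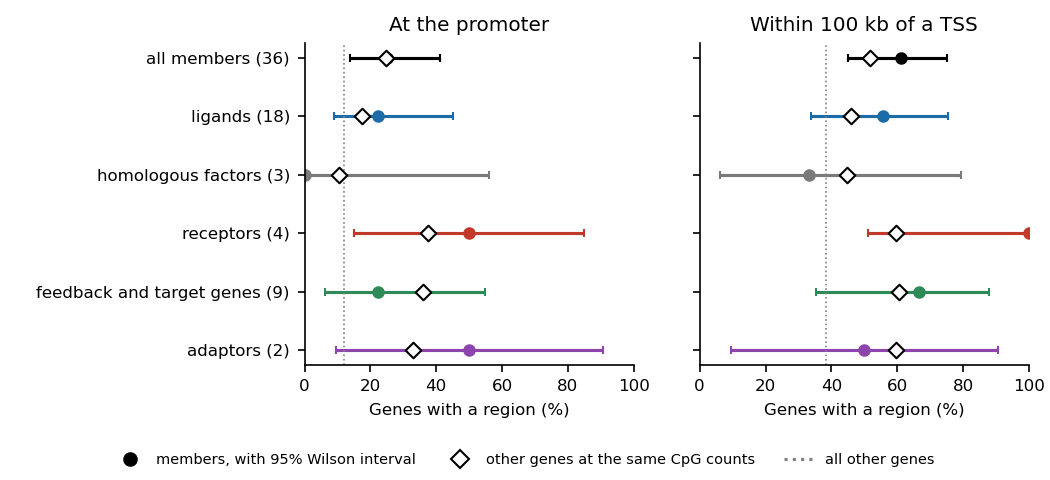
Share of genes (%) with a BRG1 region at the promoter (left) and within 100 kb of a TSS (right), for the 36 FGF pathway genes and by role, with 95% Wilson intervals, beside other protein-coding genes at the same CpG counts (diamonds) and all other genes (dotted lines, 11.9% and 38.3%). The intervals of every role at the promoter include the diamond. With roles of 2 to 18 genes they are wide, such as 9.45% to 90.5% for adaptors, so this inclusion is no check of likeness.

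Of the Sprouty genes, intracellular inhibitors of receptor tyrosine kinase signalling, Spry1 carried the narrowest promoter region of the pathway, chr3:37538866-37538905. It was 40 bp, with its midpoint 2 bp from a TSS, and only 0.239% of all regions at coding promoters were narrower. Spry2 had no region within 416 kb despite 165 promoter CpGs. For Spry4 the only region was 120 bp long and lay 30.6 kb upstream, in an intron of Arhgap26 on chromosome 18.

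None of the Spred genes, which restrain the activation of Raf by Ras, had a promoter region. Spred2 had 2 regions away from any promoter, at chr11:19820166-19820645 (480 bp), 3.97 kb upstream of the nearest TSS, and at chr11:19862886-19863845 (960 bp), in an intron 8.79 kb downstream of a TSS. Spred3 had 1 region, 68.6 kb away, at the promoter of Yif1b. Spred1 had the highest CpG count of the 36 genes, at which 55.8% of other genes had a promoter region, and its nearest region was 145 kb away.

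Dusp6, the phosphatase that inactivates ERK, had a region of 660 bp on 2 rows at chr10:98723706-98724365. Its midpoint was 1.83 kb upstream of the single TSS and its near edge 1500 bp away, so that it entered the count only with a promoter of 2 kb either side. Etv4 and Etv5 encode ETS factors induced by FGF signalling, and they differed. Etv4 had a 680 bp region at chr11:101645886-101646565, within 1 kb of which 11 of its 12 transcripts start, whereas the nearest region to Etv5 was 239 kb away, with 142 promoter CpGs at Etv5 and 128 at Etv4. A 200 bp stretch of the Etv4 region outside UTRs, on the minus strand, holds 21 CpGs in capitals, many in an alternating run.
Etv4, chr11:101646126-101646325: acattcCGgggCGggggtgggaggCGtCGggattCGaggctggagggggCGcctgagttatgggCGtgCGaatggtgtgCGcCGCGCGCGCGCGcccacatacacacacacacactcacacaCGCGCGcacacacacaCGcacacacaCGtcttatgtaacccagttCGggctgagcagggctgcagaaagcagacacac

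Frs2 and Frs3 encode the adaptors that the activated receptor phosphorylates. Frs3 had a region of 180 bp at chr17:47832186-47832365, at the start of 1 of its 6 transcripts and also at the promoter of Prickle4, while Frs2 had none within 228 kb. The 144 bp of the Frs3 region outside UTRs, on the plus strand, hold 18 CpGs, shown in capitals.
Frs3, chr17:47832222-47832365: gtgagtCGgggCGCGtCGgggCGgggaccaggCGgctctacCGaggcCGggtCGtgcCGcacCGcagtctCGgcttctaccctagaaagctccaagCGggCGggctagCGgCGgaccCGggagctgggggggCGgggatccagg

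The width of the 12 promoter regions was 260 bp at the median and ranged from 40 to 2320 bp, against a median of 420 bp for all 2510 regions at promoters of protein-coding genes. On more than 1 row of the list stood 3 of the 12 (25%, against 27.1%). The midpoint was downstream of the nearest TSS of the pathway gene itself for 9 of 12 (75%), with offsets from -397 to 768 bp. Over all promoter regions the share was 70.4%, but from the nearest TSS of any protein-coding gene, so the 2 shares are unlike measures. That TSS belonged to another gene for the Fgf2 region shared with Bbs12, the Fgf20 region and the Fgfr2 region shared with Ctbp2. The median CpG density of the 12 regions, 11.1 per 100 bp, was close to the 12.2 of all promoter regions. In 4 of the 12 the promoter of another protein-coding gene was overlapped too.

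**Figure D4:**
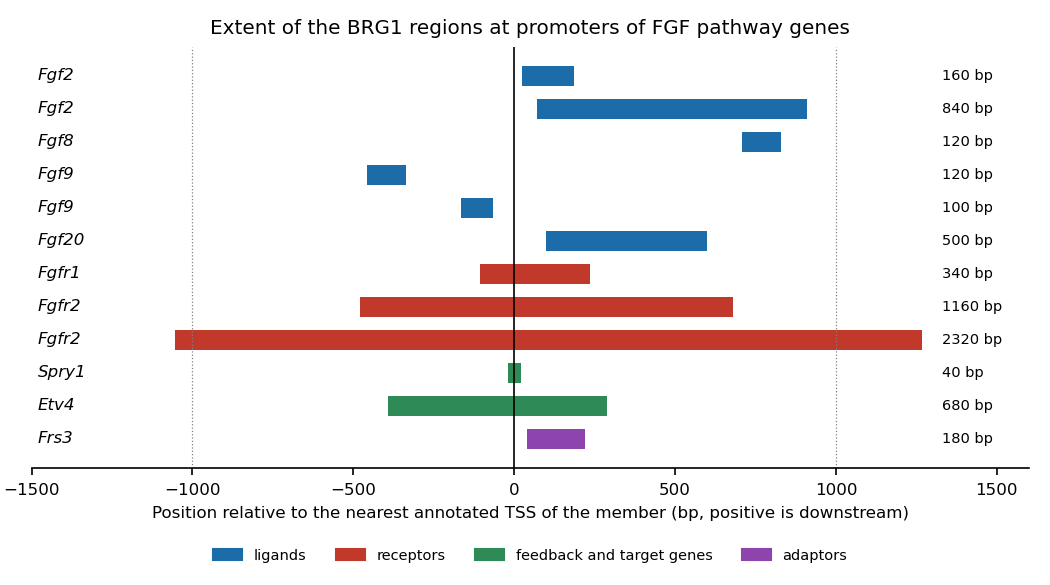
Extent of the 12 BRG1 regions at promoters of FGF pathway genes, drawn to scale in bp from the nearest annotated TSS of that gene with downstream to the right, and dotted lines at 1 kb either side. Widths run from 40 bp at Spry1 to 2320 bp at the Fgfr2 start shared with Ctbp2, and 9 of the 12 midpoints lie downstream of the TSS.

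The 8 regions away from any annotated promoter lay within 100 kb of 6 genes, 1 each at Fgf18, Fgfr3, Spry4 and Dusp6 and 2 each at Fgfr1 and Spred2. In 5 of the 8 the FGF pathway gene was the closest protein-coding gene. Their median CpG density was 6.82 per 100 bp and their median width 420 bp, compared with 1.77 per 100 bp and 200 bp for all 907 regions away from any promoter in the list. The 907 were not matched for distance to a gene or for the CpG count of a nearby promoter. Of the 8, those of Dusp6 and Spred2 and that in the Fgfr1 intron had midpoints 1.61 to 8.79 kb from a TSS. Among the 8 the density ranged from 1.25 in the Whsc1l1 intron to 13.1 upstream of Fgfr3.

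Because Etv4 and Etv5 are ETS factors, the ETS core CCGGAAG was counted on both strands in the 300 bp around the midpoint of each region. This window runs past the edges of narrower regions, which were 6 of the 12 at promoters and 3 of the 8 away from them. It was present in 1 of the 12 promoter regions, that of Fgf2 shared with Bbs12 (8.33%, against 6.49% of all regions at coding promoters). It was present in 2 of the 8 regions away from promoters (25%, against 2.76% of 907), those upstream of Spred2 and of Dusp6. This core holds a CpG, and these regions were richer in CpG than the 907. Regions were then split at 5 CpGs per 100 bp, a limit chosen after seeing the data. At or above it, 6.05% of all 281 regions away from promoters held the core. Of the 5 such regions of the pathway genes, 2 held it (40.0%), and the difference was not tested. With bases outside the regions left out, the counts were still 1 of 12 and 2 of 8 (5.26% and 1.32% of all). The shorter ETS core GGAAGT, which can overlap the longer, was in 2 of 12 (12.3% of all) and in 1 of 8 (12.5%, against 15.4%). These are matches of letters in regions chosen for their position, and no binding of an ETS factor was measured. The central 300 bp of both regions follow on the plus strand, with the match in capitals.
Spred2, chr11:19820256-19820555: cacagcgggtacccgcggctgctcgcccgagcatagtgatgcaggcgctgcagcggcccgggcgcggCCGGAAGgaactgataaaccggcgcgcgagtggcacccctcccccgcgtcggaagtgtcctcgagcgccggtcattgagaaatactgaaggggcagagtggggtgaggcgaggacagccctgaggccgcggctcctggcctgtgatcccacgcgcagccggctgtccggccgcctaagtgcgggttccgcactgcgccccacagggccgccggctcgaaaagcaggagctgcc
Dusp6, chr10:98723886-98724185: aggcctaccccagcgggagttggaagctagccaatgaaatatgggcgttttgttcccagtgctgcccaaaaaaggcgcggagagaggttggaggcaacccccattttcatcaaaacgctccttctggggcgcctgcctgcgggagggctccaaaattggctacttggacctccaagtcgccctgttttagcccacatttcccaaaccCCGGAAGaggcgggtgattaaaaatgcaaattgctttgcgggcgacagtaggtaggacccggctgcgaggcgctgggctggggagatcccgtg

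Cores of other factor families were counted in the same way. The GATA core AGATAA was in 0 of 12 promoter regions (2.55% of all) and in 2 of 8 regions away from promoters (25%, against 25.4%). Of these, 1 lay in an intron of Fgfr1 and the other in the Whsc1l1 intron, 51.0 kb from the nearest Fgfr1 TSS. The T-box core AGGTGTGA was in none of the 20 regions, and in 0.319% of all promoter regions and 1.87% of those away from promoters. The GC box GGGCGG, recognised by Sp and KLF factors, was in 10 of 12 promoter regions (83.3%, against 78.1%) and in 3 of 8 away from promoters (37.5%, against 25.1%). Part of these matches lay in flanking bases. Inside the regions the GC box was in 6 of 12 (50.0%, against 71.4%) and in 2 of 8 (25%, against 21.1%). One region with matches in the flanks alone is that of Fgf9 at chr14:58691066-58691185, shown whole above.

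Over the 36 genes the median distance from a TSS to the nearest region was 53.2 kb (quartiles 1.56 and 231 kb), compared with 166 kb (46.4 and 534 kb) for other protein-coding genes. This distance was not compared at the same CpG counts, and the pathway genes had the higher counts (median 118 against 66). By role the median distance was 13.1 kb for receptors, 30.6 kb for feedback and target genes, 99.8 kb for ligands, 114 kb for adaptors and 119 kb for homologous factors, with roles of 2 to 18 genes. It was taken from any TSS of a gene, and the receptor genes had 4 to 15 of them. The windows cut through close values. Just inside the promoter window was the Fgf8 region, with its near edge 709 bp from the TSS, and just outside were those of Fgfr1 at 1340 bp and Dusp6 at 1500 bp. Just inside 100 kb were Fgf21 at 99.9 kb and Fgf3 at 99.6 kb, and just outside were Fgf12 at 119 kb and Fgf4 at 123 kb.

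The ability to place reads was much the same for all 36 promoters. Of the 75 bp words in the promoter windows, the read length of the libraries, 97% to 100% occurred once in the mm9 genome, with Etv5 lowest. The 27 genes without a promoter region and the 9 with one had the same median of 100%.

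A further 36 genes of the pathway were counted in the same way. They were listed for their function, but with earlier results of these data known. They encode co-receptors and membrane partners, signal transducers from the receptor to ERK, ERK targets, and enzymes and core proteins of heparan sulphate. A promoter region was present at 13 of them (36.1%, 22.5% to 52.4%), compared with 30.1% at their CpG counts, and 22 had a region within 100 kb (61.1%, against 55.8%). They included the co-receptor gene Kl, the membrane proteins Flrt2 and Il17rd, the transducers Grb2, Sos1, Ptpn11 and Plcg1, the heparan sulphate enzymes Ext2 and Hs2st1, and the core proteins Sdc1, Sdc3 and Gpc1. Their widths ran from 160 bp at Ext2 to 1280 bp at Hs2st1.

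The count of 9 promoters depended on how a promoter and a region were defined. Only Fgfr2 had some promoter region under each of 9 alternative definitions of promoter and region, and Fgf2 and Etv4 under 8. For Fgfr2 it was not always the same region, since the one shared with Ctbp2 was alone counted with the most upstream TSS and the other alone when shared regions were left out. With regions of 200 bp or wider, 5 genes remained (9.12% of other genes and 20.3% at the same CpG counts), with Fgf8, Fgf9, Spry1 and Frs3 lost. With the most upstream TSS of each gene only, 6 remained and Fgf9, Fgfr1 and Frs3 were lost.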

How the data were processed

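BRG1 ChIPseq had been performed in wild-type CPs with an antibody from Abcam on crosslinked, MNase-digested chromatin. Single-end reads of 75 bp were trimmed (fastq-mcf) and mapped to mm9 (Bowtie) by the authors, who kept reads above a mapping quality minimum and called bins enriched over input DNA. Versions, and how the 2 libraries and the repeated rows arose, are not given in the sources used here. The deposited list holds positions in bp only, counted from 0 at the start, with no signal, so depth is unknown. Identical rows were counted once. Annotated TSSs came from GENCODE M1 on NCBIM37 (mm9). A promoter was 1 kb either side of any TSS of a gene, an overlap of 1 bp counted, and a gene's CpG count was the highest over its TSSs. Fgfr1 has 2 entries under its symbol, and the longer was used. For each gene, other protein-coding genes with a CpG count within 5 gave the share at the same CpG count, averaged over genes. No column of another sample was used, and no test was made. The counting was tested on simulated data. Work was done in Python 3.11.15 with numpy 2.4.6, pandas 2.3.3, numba 0.67.0, pysam 0.24.0 and samtools 1.23.1. The genes, the further pathway list and the alternatives were chosen with earlier results of these data known. All 36 genes are named, and of the further 36 those with a promoter region, except for an item that is not reported here. Sequences are from the widest promoter region of each role and from regions with the ETS core, and those of Fgf9 and of the narrower Fgfr2 region were added after values were seen, as was the split at 100 CpGs.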

Additional observations from a re-analysis of the deposited data

How the results depend on the processing

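No paired analysis was possible because the 2 ChIP libraries were not listed apart and no result came from a test. Of 92 alternatives over 11 counts, shares and widths, each taken singly, 51 left the value within its limits and 41 moved it. The limits were a set fold range for counts and an interval of counting error for shares and for the median width. Some moves were fixed in advance, because fewer regions or another window changes a count or share in a known direction. The tally is therefore not a measure of robustness. The promoter share of the FGF pathway genes turned from above to below the share at the same CpG counts in 8 of 14 alternatives, among them 13.9% against 17.5% with 1 kb upstream only and 5.56% against 8.57% with regions on more than 1 row. The cause was not tested.

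Starting from 9 genes with a promoter region, 5 remained with 1 kb upstream only, 5 with regions of 200 bp or wider and 2 with regions on more than 1 row. In the same order ligands went from 4 to 1, 2 and 1, adaptors from 1 to 0, 0 and 0, and the share at the same CpG counts from 24.6% to 17.5%, 20.3% and 8.57%. Feedback and target genes went from 2 to 1 with regions of 200 bp or wider and to 0 with regions on more than 1 row, and receptors from 2 to 1 with the latter. With the most upstream TSS only, receptors fell to 1, adaptors to 0 and the share at the same CpG counts to 22.6%. The further pathway genes went from 13 to 7 with 1 kb upstream only and to 2 with regions on more than 1 row. With regions at another gene's promoter left out, a choice made after seeing the data, adaptors fell to 0 and the share at the same CpG counts to 20.7%. That share was 22.3% with the CpG count at the most upstream TSS, 20.5% with the count in 1 kb, 25.7% within the same decile of genes by CpG count and 23.9% with a promoter of 500 bp either side.

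Within 100 kb, 22 genes became 9 with regions on more than 1 row and 12 without regions at another gene's promoter. The share at the same CpG counts went from 51.8% to 16.4% and 29.2% under these. It was 38.7% at 50 kb, 68.0% at 200 kb, 49.7% with the most upstream TSS, 49.6% with its CpG count, 49.3% with the count in 1 kb, 54.3% from the gene body, 53.1% against autosomal genes, 52.7% at exactly the same CpG count and 41.7% with regions of 200 bp or wider. The median width of promoter regions was 1000 bp with each row counted, from 260 bp. The 2320 bp region shared by Fgfr2 and Ctbp2 alone gave 9 of those rows. The shorter ETS core was in 2 promoter regions, the longer in 1. Neither occupancy strength nor differences between libraries can be read from these positions.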
